A study of Mus musculus with 12 samples.

Results

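The 8 genes described here encode the giant filament proteins titin (Ttn) and nebulin (Neb), the myosin-binding proteins C (Mybpc1, Mybpc2) and H (Mybph), the M-band proteins myomesin 1 and 2 (Myom1, Myom2), and Smyd1, a muscle lysine methyltransferase. They were taken by name, as every probe set that the platform annotation gives to 1 of these genes alone. This gave 23 probe sets for 8 genes, of 34958 probe sets and 18194 genes with a single-gene annotation. RNA came from the gastrocnemius, the main calf muscle, of 12 male mice of generation 37 of a selection for high voluntary wheel running, at a mean age of 84 days (79 to 86 days). 6 mice of line 3 had mini-muscle, a heritable trait in which the hindlimb muscles are much smaller, and 6 mice of line 8 had muscle of regular size. Both lines had been selected for running, so no array came from an unselected control line. Both gastrocnemius muscles of each mini-muscle mouse were pooled, whereas 1 muscle of each regular-muscle mouse was used. Phenotype, line and the number of limbs therefore divide the arrays in the same way and cannot be told apart.

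Titin spans from the Z-disc to the M-band of the sarcomere and works as a molecular spring and a scaffold for the thick filament, while nebulin runs along the thin filament and helps to set its length. Myosin-binding protein C forms stripes on the thick filament and tunes the cross-bridges, with a slow-type form (Mybpc1, also found in many fast fibres) and a fast-type form (Mybpc2). Myomesins crosslink thick filaments at the M-band, and Smyd1 is needed for the assembly of myofibrils.

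Values are MAS5 probe set intensities on the log2 scale, where 1 unit is a doubling, with n = 6 arrays per group throughout. A difference is the mini-muscle mean less the regular-muscle mean, and SE is its standard error in the limma fit. A probe set was called at a Benjamini-Hochberg adjusted p under 0.05 over all 34958 probe sets. In bulk muscle, fewer fibres of a type and less RNA per fibre cannot be told apart. No level of 1 probe set was set against that of another gene, because probe sets differ in their response.

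Transcripts of slow-type myosin-binding protein C and of myosin-binding protein H were clearly higher in mini-muscle, and that of the M-band protein Myom1 was moderately higher. The brightest probe sets of Ttn, Neb, Mybpc2, Myom2 and Smyd1 were not called, although dimmer ones of Ttn, Myom2 and Smyd1 were. The brightest of these last 3 genes are of the _a, _x and _s classes, named by the letter before _at. Of the 7 probe sets of these classes 2 were called higher and 0 lower. Among the 16 plain _at probe sets 6 were called higher and 1 lower. This split was made after the data were seen. Of the 23 probe sets, 8 were called higher and 1 lower, and 14 were not called. Over all single-gene probe sets, 8.92% were called, 5.00% higher and 3.91% lower. Among the 21 of the 23 that lay above the dim limit (a mean log2 intensity of 8.56, the median over the brightest probe sets of all genes), the counts were again 8 and 1. Of all probe sets above that limit, 19.5% were called, 10.7% higher and 8.81% lower. The 8 calls belong to 5 genes, with 3 of them in Mybpc1 alone, so they are not 8 separate results. Counted by brightest probe set, limma called 3 of 8 genes higher at an adjusted p under 0.05 (Mybpc1, Mybph and Myom1) and 0 lower. Before adjustment, the limma p was 0.010 for Neb, which was lower, and 0.011 for Myom2, which was higher. Among all genes counted by brightest probe set 11.1% were called, 6.27% higher and 4.83% lower. The brightest probe sets of all 8 genes lay above the dim limit, where 1039 of 9097 genes were called higher and 832 lower. Calls were more frequent among bright probe sets: of the 2379 with a mean of 12 or more, 400 were called higher and 515 lower. Mini-muscle and regular-muscle values were fully separate at 6 of the 23 probe sets (5 higher, 1 lower), against 5.46% of all (2.92% higher, 2.54% lower). Above the dim limit these were 6 of the 21, against 1729 of all 14388 probe sets there (6.28% higher, 5.73% lower). At the brightest probe sets they were separate for 2 of the 8 genes, both higher, against 6.91% of all genes (3.72% higher, 3.20% lower). Of the 9097 genes above the dim limit, 1180 were separate (624 higher, 556 lower).

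**Figure D1:**
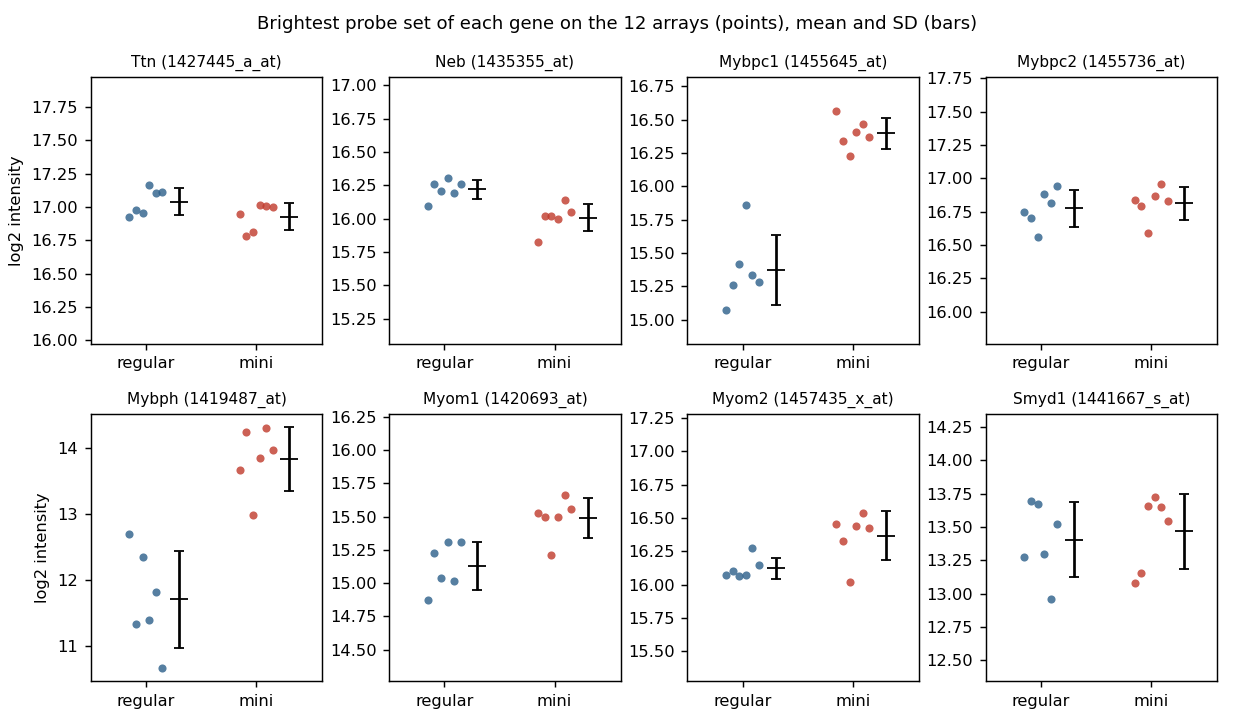
Log2 intensity (vertical axis) of the brightest probe set of each of the 8 genes on every array, with regular-muscle arrays in blue and mini-muscle arrays in red; black bars give the mean and SD. Only for Mybpc1 and Mybph does every mini-muscle array lie above every regular-muscle array.

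Mybpc1, on chromosome 10, was read by 3 probe sets, and all 3 separated the groups. At the brightest, 1455645_at, the mini-muscle arrays ranged from 16.23 to 16.57 with a median of 16.39. The regular-muscle arrays ranged from 15.07 to 15.86 with a median of 15.31. The lowest mini-muscle array thus lay above the highest regular-muscle array, and the regular-muscle arrays were the more variable (SD 0.26 against 0.12). The difference was 1.03 (SE 0.11, 2.04-fold, adjusted p = 2.9e-06). The 2 dimmer probe sets gave larger differences, 1.62 (SE 0.12, 3.07-fold) at 1444341_at and 1.54 (SE 0.13, 2.91-fold) at 1442769_at. All 3 calls held in every fit in which the probe set was tested, including those without each array in turn.

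Mybpc2, on chromosome 7, did not show this pattern. Its single probe set, 1455736_at, ranged from 16.59 to 16.96 (median 16.83) in mini-muscle and from 16.56 to 16.95 (median 16.78) in regular muscle. The ranges lay almost on top of each other. The difference was 0.04 (95% interval -0.14 to 0.22, adjusted p = 0.89), and after quantile normalization it was 0.12 (adjusted p = 0.39).

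Mybph encodes a shorter relative of myosin-binding protein C that also binds the thick filament. Its transcript, from chromosome 1, had the largest difference of the 23 probe sets. The mini-muscle arrays ranged from 12.98 to 14.31 (median 13.90) and the regular-muscle arrays from 10.66 to 12.69 (median 11.61). The groups did not overlap, but each was widely spread (SD 0.48 and 0.74), and the highest regular-muscle array, replicate 1, lay close below the lowest mini-muscle array, replicate 3. The difference was 2.13 (SE 0.27, 4.37-fold, adjusted p = 2.7e-05). It rests on 1 probe set, 1419487_at, and the call held in every fit.

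The RefSeq promoter windows (build GRCm38.p6, 250 bases before to 50 after the annotated start) of the 3 genes called at their brightest probe set are shown with that of Mybpc2, whose reading did not differ. Of the 8 genes, 6 were found in the table by symbol. The lines run from 5′ to 3′ on the strand of the gene. Capitals mark matches, on either strand, to the E-box CANNTG, the MCAT element CATTCC, the box TATAAA, the MEF2 consensus or the CArG box.
Mybpc1 (chr10:88605103-88605402, minus strand): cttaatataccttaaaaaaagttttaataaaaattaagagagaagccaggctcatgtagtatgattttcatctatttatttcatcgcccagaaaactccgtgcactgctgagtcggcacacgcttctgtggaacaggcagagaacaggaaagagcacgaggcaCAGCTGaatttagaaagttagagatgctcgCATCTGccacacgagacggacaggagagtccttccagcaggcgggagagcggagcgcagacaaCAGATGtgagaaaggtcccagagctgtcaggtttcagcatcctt
Mybpc2 (chr7:44524620-44524919, minus strand): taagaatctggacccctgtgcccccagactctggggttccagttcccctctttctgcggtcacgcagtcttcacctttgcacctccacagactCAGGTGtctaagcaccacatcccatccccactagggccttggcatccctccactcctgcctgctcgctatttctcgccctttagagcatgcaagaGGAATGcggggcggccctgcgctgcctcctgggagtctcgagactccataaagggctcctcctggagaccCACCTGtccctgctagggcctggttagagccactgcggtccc
Mybph (chr1:134193198-134193497, plus strand): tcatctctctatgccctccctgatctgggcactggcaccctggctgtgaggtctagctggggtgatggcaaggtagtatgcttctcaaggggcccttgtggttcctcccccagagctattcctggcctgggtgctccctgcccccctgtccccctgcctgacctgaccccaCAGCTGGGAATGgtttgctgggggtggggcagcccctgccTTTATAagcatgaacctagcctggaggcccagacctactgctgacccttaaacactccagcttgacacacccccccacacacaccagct
Myom1 (chr17:71019307-71019606, plus strand): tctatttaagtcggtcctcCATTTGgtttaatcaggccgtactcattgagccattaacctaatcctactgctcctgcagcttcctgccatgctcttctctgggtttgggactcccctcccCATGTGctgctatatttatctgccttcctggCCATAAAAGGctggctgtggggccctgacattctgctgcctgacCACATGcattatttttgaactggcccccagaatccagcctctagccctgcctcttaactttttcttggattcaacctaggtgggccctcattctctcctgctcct
The Mybpc1 window held 3 E-boxes and none of the other 4 motifs. In the Mybph window an E-box and an MCAT element stood side by side without overlap, starting 79 and 73 bases before the start, and a TATAAA box on the opposite strand followed at 39 bases. The Myom1 window held 3 E-boxes and a CArG box starting 99 bases before the start. Mybpc2 held 2 E-boxes and an MCAT element at 62 bases. Over 32851 promoter windows of the same length, 72.3% held an E-box, 14.7% an MCAT element, 13.6% a TATAAA box, 3.19% a MEF2 consensus and 1.63% a CArG box. E-boxes are thus common in any such window, and a match is a match of letters, not a measured binding site.

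At the M-band, the 1 probe set of Myom1 and 2 of the 4 of Myom2 were called higher in mini-muscle, the brightest of Myom2 not among them. Myom1, on chromosome 17, was read by 1420693_at, which ranged from 15.21 to 15.66 (median 15.51) in mini-muscle and from 14.87 to 15.31 (median 15.13) in regular muscle. 5 of 6 mini-muscle arrays lay above every regular-muscle array, and replicate 3 fell among them. The difference was 0.36 (SE 0.09, 1.28-fold, adjusted p = 0.015). The call was lost with arrays centred on their medians (adjusted p = 0.15) and without the intensity trend of the variance model (adjusted p = 0.14).

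Myom2, on chromosome 8, had 3 probe sets above the dim limit. At 1450917_at the mini-muscle arrays ranged from 14.76 to 15.72 (median 15.52) and the regular-muscle arrays from 14.36 to 14.65 (median 14.52), without overlap. This was a rise of 0.91 (SE 0.13, 1.87-fold, adjusted p = 8.1e-05). At 1438175_x_at the rise was 0.72 (SE 0.12, 1.65-fold, adjusted p = 6.3e-04), with regular-muscle replicate 5 inside the mini-muscle range. The brightest, 1457435_x_at, differed by 0.25 (SE 0.09, adjusted p = 0.097), with 5 of 6 mini-muscle arrays (16.33 to 16.53) above all regular-muscle arrays (16.06 to 16.28). The remaining one, replicate 3, was the lowest of all 12 arrays at 16.02, and without it the difference was 0.32 (adjusted p = 0.0090). It was also called after quantile normalization (0.30, adjusted p = 0.019), with dim probe sets left out (adjusted p = 0.026) and with robust variances (adjusted p = 0.037). It was not called with median centring (adjusted p = 0.43), without the intensity trend (0.29) or with an offset of 16 or 64 (0.11 and 0.12). The dim 1438372_at, at 7.01 ± 1.02 (SD) and 7.28 ± 0.95, was too variable to read.

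**Figure D2:**
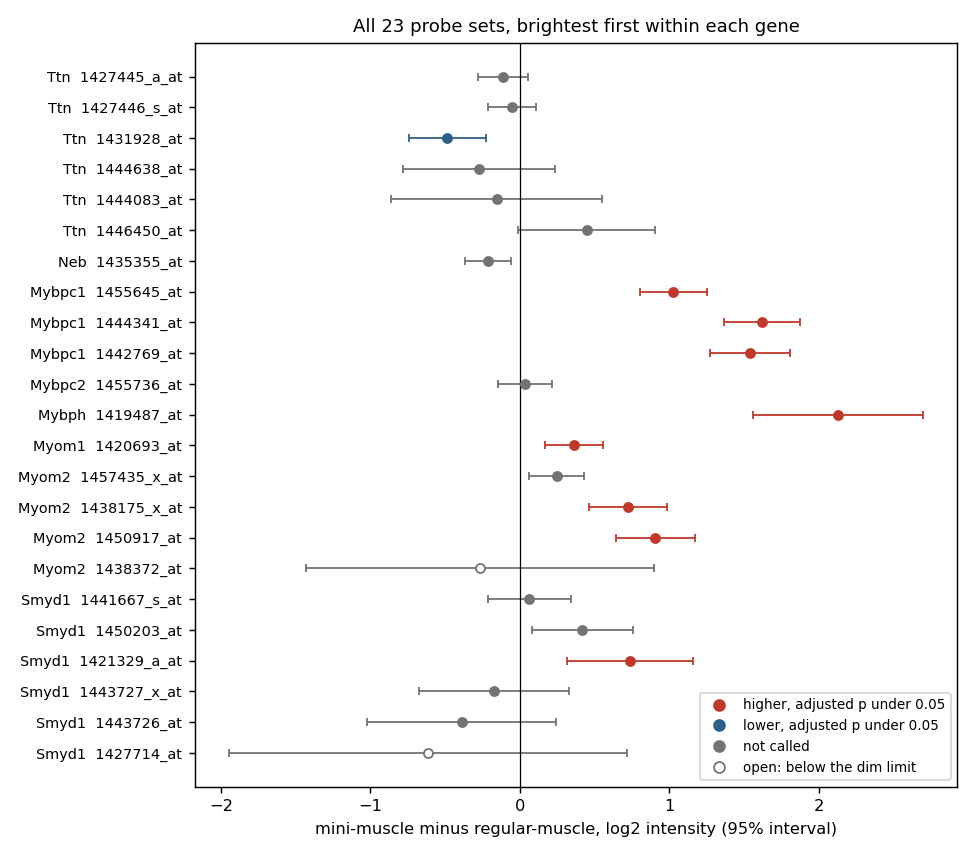
Difference between the groups (horizontal axis, log2 intensity) with its 95% interval for each of the 23 probe sets, listed by gene from the brightest down; red marks calls in the higher and blue in the lower direction, grey no call, and open circles probe sets below the dim limit. All 3 Mybpc1 probe sets lie above 1, while those of Ttn and Smyd1 lie on both sides of 0.

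Titin, encoded on chromosome 2, had 6 probe sets above the dim limit, and the 2 brightest hardly differed between the groups. At 1427445_a_at the mini-muscle arrays ranged from 16.78 to 17.01 (median 16.97) and the regular-muscle arrays from 16.92 to 17.17 (median 17.04). The difference was -0.11 (95% interval -0.28 to 0.05, adjusted p = 0.51), and 0.0051 after quantile normalization. The second brightest, 1427446_s_at, differed by -0.05 (95% interval -0.21 to 0.11, adjusted p = 0.81), and by 0.06 after quantile normalization.

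One of the dimmer titin probe sets did differ. At 1431928_at the mini-muscle arrays ranged from 12.24 to 13.10 (median 12.97) and the regular-muscle arrays from 13.10 to 13.53 (median 13.29). The groups touched without overlapping: the highest mini-muscle value was 13.097 and the lowest regular-muscle value 13.101. The reading fell by 0.49 (SE 0.12, adjusted p = 0.015), and the call was lost with arrays centred on their medians (adjusted p = 0.069) and without the intensity trend (adjusted p = 0.13).

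The remaining 3 titin probe sets were not called. At 1444638_at the arrays ranged from 10.65 to 12.16 in mini-muscle and from 11.14 to 12.46 in regular muscle. At 1444083_at they ranged from 9.37 to 11.56 and from 10.03 to 11.67. Both had SDs of 0.55 to 0.86 on either side, several times the 0.10 of the brightest probe set. The dimmest, 1446450_at, pointed the other way (0.45, SE 0.22, adjusted p = 0.27). The probe sets of this long gene therefore do not give a single value for titin.

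Nebulin, also on chromosome 2, was slightly lower in mini-muscle at its 1 probe set, but did not pass the test over all probe sets. At 1435355_at the mini-muscle arrays ranged from 15.82 to 16.14 (median 16.02) and the regular-muscle arrays from 16.10 to 16.30 (median 16.23). 5 of 6 mini-muscle arrays lay below every regular-muscle array. The difference was -0.21 (SE 0.07, adjusted p = 0.090). It was called when dim probe sets were left out of the test (adjusted p = 0.017). It was also called with the brightest probe set per gene under the same filter (0.016) and with robust variances (0.023). The 2 filtered fits tested fewer features and also gave a smaller SE (0.061 in each). The difference was not called after quantile normalization (-0.15, adjusted p = 0.23), with median centring (adjusted p = 0.53) or without the intensity trend (0.30). With the mean of all probe sets per gene, which also tests fewer features, the adjusted p was 0.0504. For scale, the 89 single-gene probe sets with a mean of 16 or more had a median difference of -0.11, so the brightest transcripts as deposited lay slightly lower in mini-muscle as a group.

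Smyd1, on chromosome 6, was read by 6 probe sets that did not point one way. The brightest, 1441667_s_at, ranged from 13.08 to 13.73 in mini-muscle and from 12.96 to 13.70 in regular muscle, and differed by 0.06 (95% interval -0.21 to 0.34, adjusted p = 0.87). The second, 1450203_at, differed by 0.42 (SE 0.16, adjusted p = 0.13). The third, 1421329_a_at, ranged from 10.89 to 11.96 (median 11.18) in mini-muscle and from 10.07 to 11.25 (median 10.41) in regular muscle. It was called higher (0.73, SE 0.20, 1.66-fold, adjusted p = 0.025), although only 1 mini-muscle array, replicate 3, lay above every regular-muscle array. Omitting mini-muscle replicate 3 ended the call (0.59, adjusted p = 0.058), as did omitting regular-muscle replicate 1, 5 or 6 (0.64 to 0.67, adjusted p = 0.060 to 0.065). It was also lost with median centring (adjusted p = 0.065) and without the intensity trend (0.13). The dimmer 1443727_x_at and 1443726_at differed by -0.17 (adjusted p = 0.79) and -0.39 (adjusted p = 0.56), and 1427714_at lay below the dim limit.

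Ratios taken within an array do not depend on its scaling to a common mean, so pairs of probe sets were also compared as log2 ratios (3 pairs of genes and 13 pairs within a gene). Each was tested by exact permutation, two-sided, with all 924 ways to assign the arrays. The ratio of Mybpc1 to Mybpc2 rose by 0.99 in mini-muscle (95% interval 0.73 to 1.25). It ranged from -0.50 to -0.27 there and from -1.68 to -1.02 in regular muscle (exact p = 0.0022, the smallest possible; adjusted over the 16 pairs, p = 0.017). The readings of these 2 probe sets thus changed unequally, but 2 probe sets of the same gene could also do so, as given for Myom2 in the next paragraph. The ratio of Myom1 to Myom2 differed by 0.12 (95% interval -0.08 to 0.31, exact p = 0.24). For Ttn and Neb the ratio differed by 0.10 (95% interval -0.04 to 0.24, exact p = 0.16). These intervals hold for the brightest probe sets only, and do not exclude an unequal change of either pair of genes. Other probe sets of Myom2 and Ttn changed unequally to the brightest, as given in the next paragraph, and would give other ratios.

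Within genes, the brightest probe set often gave a smaller change than the dimmer ones. The Myom2 ratio of 1457435_x_at to 1450917_at was 0.66 lower in mini-muscle (0.77 to 1.26 against 1.52 to 1.70, exact p = 0.0022, adjusted p = 0.017), and that to 1438175_x_at was 0.48 lower (adjusted p = 0.023). The brightest Mybpc1 probe set changed less than 1444341_at by 0.59 (adjusted p = 0.035) and less than 1442769_at by 0.51 (adjusted p = 0.043). The size of the change in these 2 genes thus differed by probe set, and in Myom2 so did the call. For Smyd1 the brightest changed less than 1421329_a_at by 0.67 (adjusted p = 0.043). In Ttn, the brightest minus 1431928_at was 0.37 higher and minus 1446450_at 0.56 lower in mini-muscle (adjusted p = 0.043 for each). Most of the Mybpc1, Smyd1 and Ttn calls ended when 1 array was left out.

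**Figure D3:**
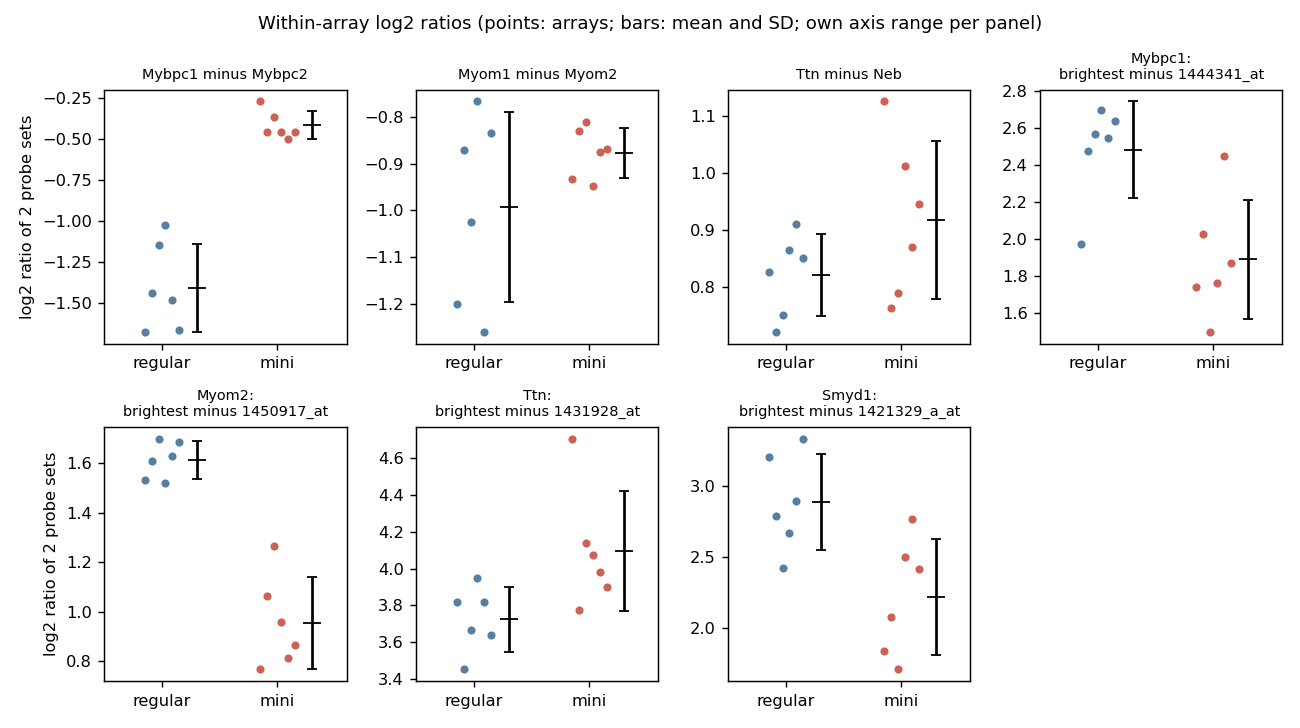
Log2 ratio of 2 probe sets within each array (vertical axis, own range in each panel) for the 3 pairs of genes and for 4 pairs of probe sets of the same gene, with regular-muscle arrays in blue, mini-muscle arrays in red and black bars for the mean and SD. The Mybpc1 to Mybpc2 ratio of every mini-muscle array lies above every regular-muscle array, whereas the Ttn to Neb ratios overlap.

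Some arrays lay at the edge of their group at many of these genes. Mini-muscle replicate 3 was the lowest of its group at 11 of the 21 probe sets above the dim limit, including those of Myom1, Myom2, Mybph and Mybpc2, and the highest at 2, both of Smyd1. Replicate 5 was the highest at 8. Among regular-muscle arrays no replicate was the lowest at more than 6 or the highest at more than 5.

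Among the other genes of the sarcomere scaffold, more were higher than lower in mini-muscle. Of 38 measured genes in 3 lists, each at its brightest probe set, 15 were higher, 4 lower and 19 not called, beside 6.27% and 4.83% of all genes. Most were bright, with 34 of the 38 above the dim limit. Of all 9097 genes above that limit, 1039 were called higher and 832 lower. The median difference of the 38 was 0.31, against 0.02 over all genes and 0.03 over those above the limit. The lists were chosen with earlier results of these data known, so these counts are not independent evidence.

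Of 13 genes for relatives of these proteins, 6 were higher and 1 lower (median 0.46). Myom3, the third myomesin, rose by 1.48 (SE 0.20, 2.79-fold, adjusted p = 6.2e-05), at 11.67 ± 0.22 (SD) against 10.20 ± 0.58. Flnc, the muscle filamin that binds at the Z-disc, rose by 1.68 (SE 0.17, 3.20-fold), and Lmod2, a leiomodin that promotes thin filament elongation, by 1.28 (SE 0.12, 2.42-fold). Nrap, a nebulin-related anchoring protein of myofibril assembly, rose by 1.03 (SE 0.07, adjusted p = 3.8e-08), while nebulin itself did not. The cardiac-type Mybpc3 lay below the dim limit in both groups, at 7.19 ± 0.98 and 7.60 ± 1.39; it was picked after its values were seen.

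Of 14 measured genes for proteins that bind titin, 5 were higher and 1 lower (median 0.37). Ankrd1, a stress-responsive ankyrin repeat protein that binds the N2A region, had the largest difference (4.41, SE 0.25, 21.2-fold, adjusted p = 3.4e-09). Actn2, the alpha-actinin that anchors titin at the Z-disc, rose by 1.11 (SE 0.11, 2.15-fold), and the LIM protein Fhl1 by 0.45 (SE 0.11, adjusted p = 0.010). The muscle RING finger protein Trim54 fell by 0.55 (SE 0.08, adjusted p = 1.4e-04). Tcap, the cap of titin at the Z-disc, gave -0.06 (adjusted p = 0.79) and Capn3, a protease held by titin, -0.15 (adjusted p = 0.51); these 2 were picked after their values were seen.

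Of 11 measured genes of sarcomere assembly and titin splicing, 4 were higher and 2 lower (median 0.15). Klhl40, a kelch protein that stabilises nebulin and leiomodin 3, rose by 1.65 (SE 0.12, 3.14-fold, adjusted p = 6.1e-08), from 11.64 ± 0.31 to 13.29 ± 0.17. Naca, whose muscle form is a partner of Smyd1, rose by 0.51 (SE 0.11, adjusted p = 0.0034). In contrast, Smyd2, a methyltransferase of the same family as Smyd1, fell by 1.69 (SE 0.09, adjusted p = 2.9e-09), from 13.64 ± 0.21 to 11.94 ± 0.12. The splicing regulator Mbnl1 fell by 0.47 (SE 0.08, adjusted p = 4.8e-04). Rbm20, the splicing factor of titin, gave 0.15 (adjusted p = 0.57, picked after its value was seen).

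**Figure D4:**
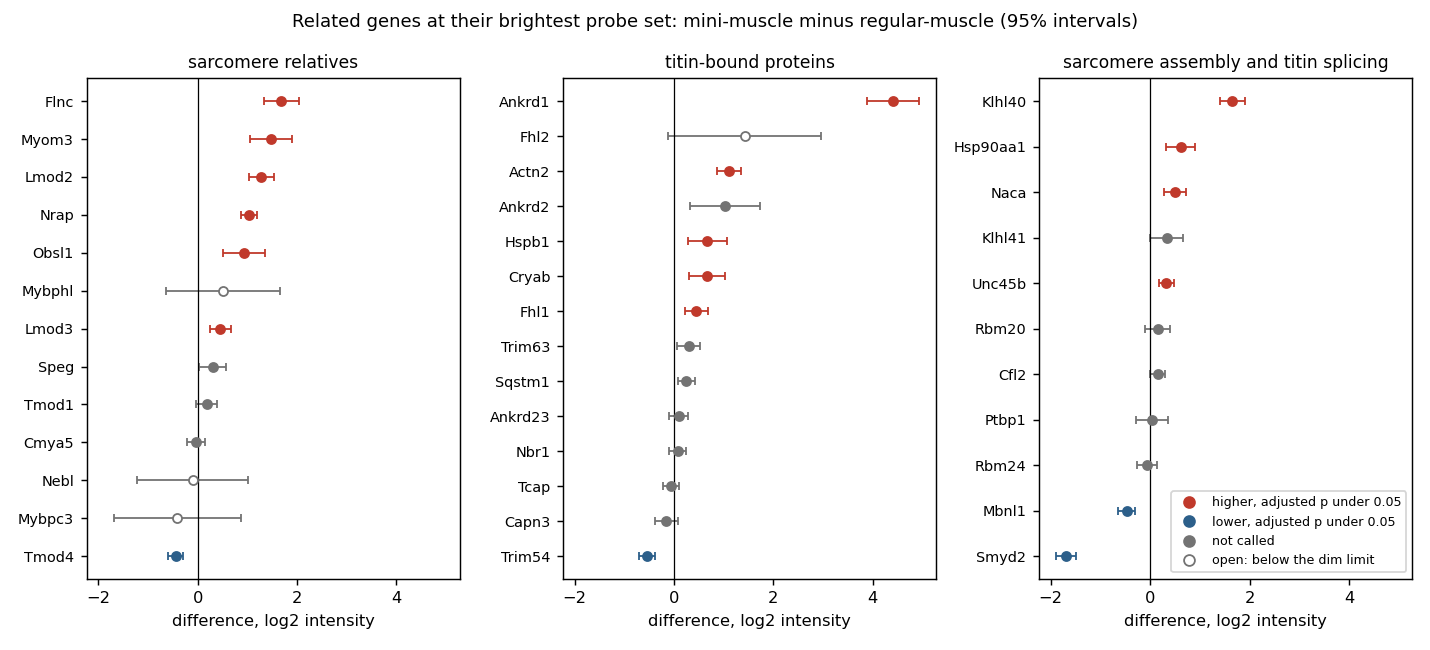
Difference between the groups (horizontal axis, log2 intensity) with its 95% interval for 38 related genes at their brightest probe sets, in 3 lists ordered by size; red, blue, grey and open symbols mark higher calls, lower calls, no call and a mean below the dim limit. Ankrd1 stands apart at 4.41, and Smyd2 is the lowest at -1.69.

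The treatment of the values moved the differences of Mybpc1 and Mybph little. At the brightest probe set, Mybpc1 differed by 1.03 to 1.08 and Mybph by 2.10 to 2.15 over quantile normalization, median centring and an offset of 16 or 64. Averaging the probe sets of each gene, Mybpc1 gave 1.40 (adjusted p = 3.6e-07) and Myom2 0.40, which was not called (adjusted p = 0.11). Only the 2 brightest probe sets of Ttn changed sign with the scaling, both close to 0.

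**Figure D5:**
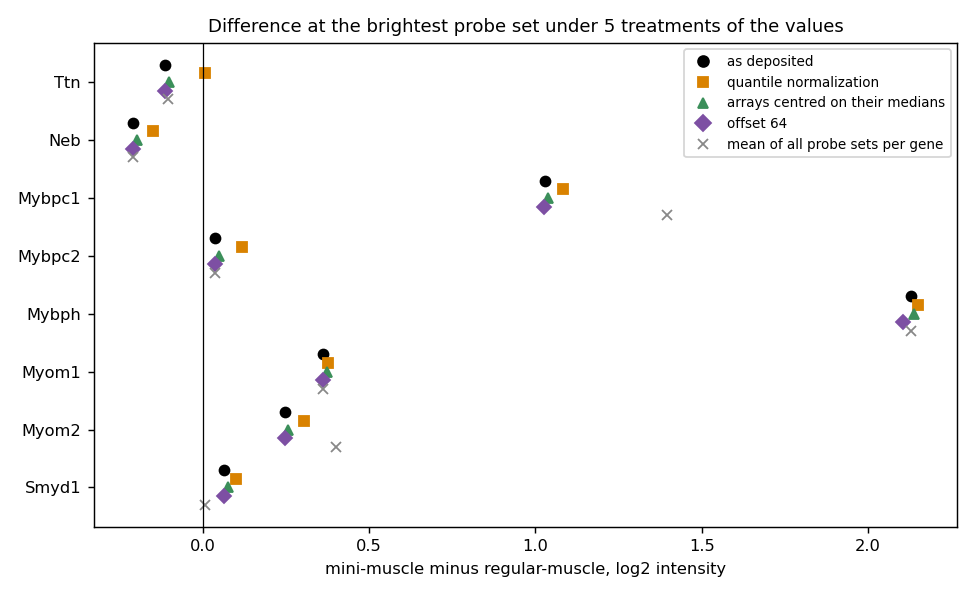
Difference between the groups at the brightest probe set of each of the 8 genes (horizontal axis, log2 intensity) under 5 treatments of the values, 1 symbol each. The symbols of Ttn straddle 0, those of Neb lie below it and those of Mybpc1 and Mybph far above it.

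The genes most like each of the 8 in how their brightest probe sets varied within groups were found by Pearson correlation over the 12 arrays, after the mean of each group was taken away, among 9096 other genes above the dim limit. These are the best of many on few arrays that share their scaling, so they carry no p. For Mybpc2 they were Actn3 (0.95), the fast-fibre alpha-actinin, Pygm (0.93), muscle glycogen phosphorylase, and Pip5k1a (0.92). For Mybpc1 they were Pacsin3 (0.95), Fkbp5 (0.91) and Enah (0.90), for Ttn Pi4kb, Atp5g3 and Efnb2, and for Neb Thoc5, Mpnd and Kansl1l. Those of Mybph were Pdcd2, Rsf1 and Pigu, those of Myom1 Tor1b, Kdm4b and Zfp516, those of Myom2 Capza2, Zkscan1 and Lonrf1, and those of Smyd1 2310002L09Rik, Smg5 and Strn3. Over the 24 genes the correlation was 0.84 to 0.96. Between the groups, 2 of them were called higher, 4 lower and 18 not.

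The labelled tissue was borne out by its markers: all 8 skeletal muscle fibre genes checked were far above the dim limit. Of these 8, 4 were lower in mini-muscle (Mylpf, Tnnt3, Myh4 and Pvalb) and 1 higher (Des), with a summed log2 level of 19.80 to 20.03 against 20.07 to 20.35. Most of these genes are very bright, and of the 89 single-gene probe sets with a mean of 16 or more 3 were called higher and 19 lower. Beside this and the counts that follow, 1039 of all 9097 genes above the dim limit were called higher and 832 lower. Of 11 fibre-type genes, 5 were higher (Myh7, Tnnt1, Tnni1, Tnnc1 and the fast-type Myh1), 3 lower (Myh4, Tnnt3 and Actn3) and 3 not called (Myh2, Tnni2 and Tnnc2). Myh7, the slow myosin heavy chain, lay at 15.40 to 15.88 in mini-muscle and 14.22 to 15.00 in regular muscle, and Myh4, the type IIb heavy chain, at 15.31 to 16.38 and 17.20 to 17.61. Connective tissue markers also moved, downwards. Of 6 fibroblast markers 3 were lower and 0 higher, with a summed log2 level of 14.08 to 14.90 in mini-muscle against 15.00 to 15.64. Of 5 tendon markers 3 were lower (12.47 to 13.48 against 13.95 to 14.20; Scx and Mkx below the dim limit), and of 5 macrophage markers 2 were lower (11.53 to 11.74 against 11.66 to 12.29; Cd68 and Cd163 below the dim limit). Endothelial and smooth muscle markers had 0 calls of 5 and 4, adipocyte, Schwann and red blood cell markers 0 of 3 each, with all 3 red blood cell markers below the dim limit. Of 4 satellite cell markers Myf5 was higher (8.89 ± 0.35 against 7.93 ± 0.34). Its mean over all arrays lay below the dim limit, as did those of Pax7 and Calcr. The part of fibre type and of connective tissue in the differences above was not tested. The log2 ratio of 3′ to 5′ signal of the Gapdh control probe sets, a sign of RNA quality that bears on long transcripts, was 0.08 higher in mini-muscle (-0.19 to -0.10 against -0.24 to -0.15, exact p = 0.013), and that of beta-actin differed by -0.20 (exact p = 0.24; adjusted over the 2 controls, p = 0.026 and 0.24). Its part in the readings of Ttn and Neb was not tested.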

How the data were processed

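Intensities of 45101 Affymetrix probe sets on 12 arrays were deposited by the authors, and the submitters' processing notes name MAS5 as their source. Its version and settings were not among the sources used here. Each array had a mean of 800.0 after the lowest and highest 2% were left out, so arrays had been scaled to 1 target, and array medians were 211.9 to 275.2. Arrays have no depth, and their number limits the precision. Log2 intensities, with no offset or further normalization, were fitted with limma 3.58.1 (R 4.3.3; lmFit, eBayes with intensity trend, two-sided) over the 34958 single-gene probe sets, with no dim filter and Benjamini-Hochberg adjustment. Symbols come from the platform annotation, chromosomes from RefSeq (GRCm38.p6). The fit was tested on simulated data. Over all probe sets, most of the changes put in were missed, at the larger size as well as the smaller. Above the dim limit, where most of the member probe sets lay, more than not of the larger changes were found, but most of the smaller were missed. A probe set that was not called may therefore still differ.

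The members and lists were chosen with earlier results of these data known. Named genes are the 8 members, up to 4 called genes per list with the smallest adjusted p, Myh7, Myh4 and the 3 genes most like each member. Others are named as picked later or to identify the members of a marker count. Replicate numbers follow accession order and only name arrays. No 2 arrays held identical values.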

Additional observations from a re-analysis of the deposited data

Results flagged for a closer look

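In 4 of the 56 groups of 6 arrays examined, 1 array stood apart from the other 5 by more than Dixon's 95% limit (a gap over 0.625 of the range). Chance flags about 1 in 20 groups. Mini-muscle replicate 3 was the lowest at Myom1 (15.21 against 15.50 to 15.66 on the other mini-muscle arrays) and the highest at Smyd1 1421329_a_at (11.96 against 10.88 to 11.25). Regular-muscle replicate 5 was the highest of its group at Myom2 1438175_x_at (15.41 against 14.67 to 14.93). At the dim Smyd1 probe set 1427714_at, mini-muscle replicate 1 was the lowest (4.79 against 5.54 to 5.94).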

How the results depend on the processing

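Direction and call were kept in 450 of 474 alternative values of the 23 probe sets, and 0 of those called reversed. The count of 8 higher probe sets was 6 with median centring or without the intensity trend, and 4 higher with 1 lower (brightest probe set, dim filter) or 3 (mean of all probe sets) when genes were counted. The 1 lower probe set (Ttn 1431928_at) became 0 with median centring, with the mean of all probe sets and without the trend. It became 2, with Neb, when dim probe sets were left out and with robust variances. Without the trend 8 related genes were higher in place of 15. Of 34958 probe sets 3117 were called, 2028 with median centring and 1702 without the trend. Of 14388 above the dim limit 3549 were called, and 1338 of 18194 genes with the mean of all probe sets. Restricting the count to plain probe sets, an alternative added after the data were seen, gave 6 and 1.

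Leaving out 1 array gave 7 to 8 higher and 1 lower probe sets, and 14 to 16 higher and 4 lower related genes. Uncalled values near 0 changed sign. With quantile normalization Ttn 1427445_a_at gave 0.0051 and 1427446_s_at 0.064. Without 1 array, Ttn 1444083_at ranged from -0.35 to 0.14, Mybpc2 from -0.0058 to 0.082, the dim Myom2 1438372_at from -0.63 to 0.087 and Smyd1 1441667_s_at from -0.025 to 0.14, and the Ttn ratio of the brightest probe set to 1444083_at from -0.23 to 0.25. The cause was not tested. The Mybpc1 to Mybpc2 ratio ranged from 0.94 to 1.07.

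No paired analysis was made, because each array came from a different mouse and the labels give no pairing between the lines. Slide and scan date were not among the sources used here, and no batch was tested.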
